A study of Rattus norvegicus with 8 samples.

Results

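The 10 genes described here encode membrane transporters that move bile acids, phospholipid, sterols and organic anions into and out of hepatocytes. They were taken by name (Abcb11, Abcc2, Abcb4, Abcg5, Abcg8, Abcg2, Abcc3, Slc10a1, Slco1b2 and Slco1a1), and 9 of the 10 had a probe set of their own on the array, out of 14506 named genes in all. The probe set of Slco1a1 is shared with Slco1a5, a closely related gene, so Slco1a1 is not analysed here. Livers of male Wistar rats, aged 6 to 10 weeks, were perfused outside the body with Krebs-Henseleit buffer, which replaces the blood. The normoosmotic group received buffer of 305 mosm/L and the hypoosmotic group buffer of 225 mosm/L, which draws water into cells and swells them. Each group has 4 samples, all labelled with the time point of 120 min in a study that perfused for up to 180 min. No animal in either group carried a genetic change or another treatment named in the labels. The labels leave unstated whether samples of 1 group are separate animals, so p-values refer to the spread among these samples, of which some may be technical.

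Bile is formed when hepatocytes pump solutes across the canalicular membrane, which lines the narrow space between neighbouring cells, and water follows. Uptake carriers on the opposite, blood-facing membrane return bile salts from portal blood to the hepatocyte, and a further set of pumps on that membrane can send conjugates back to the blood. Swelling of hepatocytes is known to raise the bile salt export capacity of perfused rat liver by insertion of stored transporter proteins into the canalicular membrane, a step that mRNA levels do not record. The arrays measure the mRNA only.

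Promoter sequence is shown for the 3 genes on which the results turn. It comes from RefSeq on the GRCr8 assembly, whose windows were matched by symbol for 8 of the 10 genes, Abcb11 and Abcc3 being the 2 not used here. The first sequence is the stretch of 250 bases just before the annotated start of Abcc2 (chr1:252613625-252613874, plus strand). Abcc2 was the 1 gene of the set whose change passed an adjusted p under 0.05. Capitals mark, from left to right, an everted repeat of 2 nuclear receptor motifs with 8 bases between them, a CCAAT box read on the minus strand, a GC box on the plus strand and a GC box on the minus strand.

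Abcc2 upstream: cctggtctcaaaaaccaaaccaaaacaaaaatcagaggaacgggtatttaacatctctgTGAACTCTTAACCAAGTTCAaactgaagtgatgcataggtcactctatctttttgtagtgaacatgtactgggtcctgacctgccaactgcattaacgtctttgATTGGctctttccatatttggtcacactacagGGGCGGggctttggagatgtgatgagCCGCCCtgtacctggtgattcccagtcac

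The everted repeat was searched as TGAACTNNNNNNNNAGTTCA, which reads the same on both strands. This form, whose repeat units differ from the AGGTCA used in the other searches, was chosen to match the Abcc2 sequence after it was seen. It lies 191 to 172 bases before the start and overlaps no other motif searched. Of 33469 promoter windows of this length, from 27457 genes, this 1 window held it, or 0.00299%, a count that the choice of letters makes small. Repeats of this type are known as binding elements of the bile acid receptor Fxr and the xenobiotic receptors Pxr and Car, each paired with Rxr. The CCAAT box (CCAAT, either strand) was in 34.0% of all windows and the GC box (GGGCGG, either strand) in 30.5%. Each match describes letters in the reference and is no measurement of binding.

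The second sequence is the whole interval between the annotated starts of Abcg8 and Abcg5, which point away from each other (chr6:15717731-15717935, plus strand). It is 205 bases long, and the window of one gene overlaps that of the other by 295 of 300 bases, so both genes are read from the same short stretch of DNA. Of 13772 genes on plus strands, 747 or 5.42% have a gene on the opposite strand that starts as close in front of them. Capitals mark 2 copies of the GATA factor motif (AGATAA, either strand) and then a CCAAT box read on the minus strand.

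Abcg8 to Abcg5 interval: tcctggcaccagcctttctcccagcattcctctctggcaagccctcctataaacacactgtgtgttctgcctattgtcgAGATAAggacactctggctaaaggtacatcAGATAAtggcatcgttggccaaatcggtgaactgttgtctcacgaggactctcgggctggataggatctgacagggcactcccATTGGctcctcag

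The GATA copies begin 80 and 110 bases from the start of Abcg8, and 10.3% of all windows hold at least 1 such motif. The inverted repeat AGGTCANTGACCT and the direct repeat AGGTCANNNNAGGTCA, both searched on either strand and known as classical elements of Fxr and of the oxysterol receptor Lxr, were in 0 of the 8 windows and in 9 and 1 of all windows. The clock E-box CACGTG, which reads the same on both strands, was in 0 of the 8 windows and in 5.59% of all. The single nuclear receptor motif AGGTCA was in 3 of the 8 windows and 14.1% of all, the partial Hnf1 motif GTTAAT in 3 and 6.45%, and the core motif TGGAAA of the osmosensing factor Nfat5 in 2, those of Abcc2 and Slco1a1, and 19.7% (all on either strand).

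Of the 9 measured genes, 1 fell and 0 rose at an adjusted p under 0.05 (limma, Benjamini-Hochberg over 14506 genes). Over all genes 1.98% were called, 0.558% higher and 1.42% lower. At an adjusted p under 0.1 the count of the 9 was again 1, beside 4.14% of all genes. In 2 of the 9, Abcc2 and Abcb4, the 4 hypoosmotic values all lay below the 4 normoosmotic ones, and 8.27% of all genes were apart in this way in either direction, 5.05% toward lower values. The median change of the 9 genes was −0.03, beside 0.04 for all genes. Changes are log2 differences, hypoosmotic minus normoosmotic, of the deposited log2 values, where a difference of 1 is a doubling. Array medians lay between 4.05 and 4.16, and with 4 arrays a group the precision of each mean is limited. None of the 9 genes was among the 25% of genes with the lowest mean signal.

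**Figure D1:**
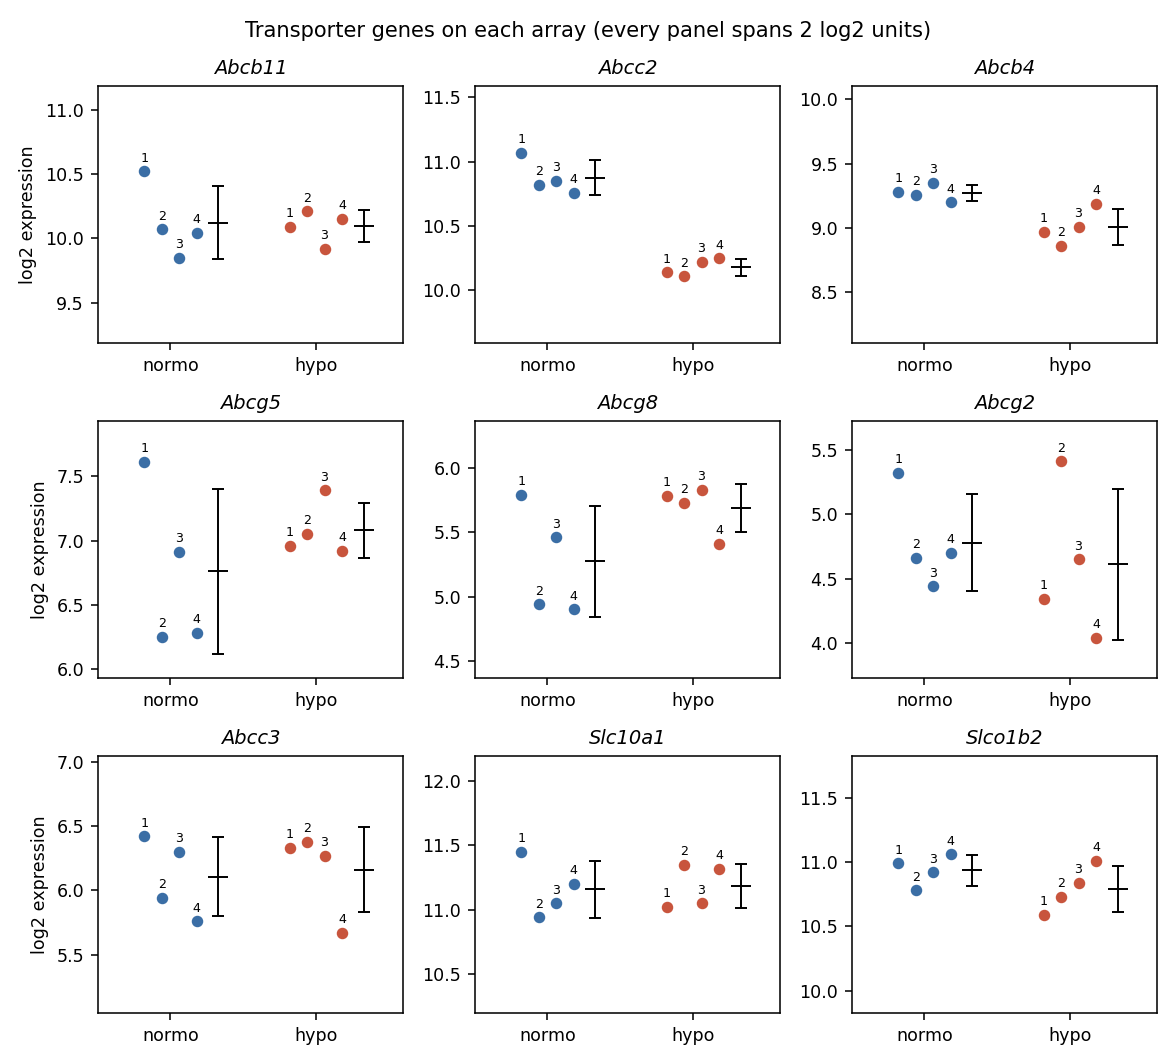
Log2 expression of the 9 transporter genes (vertical axis, 1 panel per gene, each spanning 2 log2 units) on each array of the normoosmotic (blue) and hypoosmotic (red) groups. Digits are the replicate numbers, and the black bars give the mean and SD of 4 arrays. Abcc2 is the panel in which the groups stand clearly apart, from 10.76 to 11.07 against 10.11 to 10.25.

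Among the canalicular export pumps, Abcc2 was the 1 gene called. Its product, Mrp2, exports bilirubin conjugates, glutathione conjugates and other organic anions into bile. Abcc2 (probe set 10940643) read 11.07, 10.82, 10.85 and 10.76 on normoosmotic arrays 1 to 4. On hypoosmotic arrays 1 to 4 it read 10.14, 10.11, 10.22 and 10.25. The groups did not overlap, and the gap between the lowest normoosmotic and the highest hypoosmotic array was 0.51 log2 units, wider than the whole range of either group (0.31 and 0.14).

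Abcc2 fell from 10.88 ± 0.14 to 10.18 ± 0.07 (SD, n = 4 each). The change was −0.70 ± 0.11 (SE) on the log2 scale (limma, adjusted p = 0.00752). In linear terms its signal was 61.8% of the normoosmotic level, a ratio of 0.618 (0.524 to 0.728 as its 95% interval). The call was kept in all 17 alternative fits, among them those that left out each array in turn, with changes from −0.73 to −0.63 and adjusted p-values from 0.00172 to 0.0358. The fits that altered only the filter, the prior, the block or the probe sets used cannot move the change from −0.695. In those fits only the p could differ. In whole liver, fewer cells of a type and less RNA per cell cannot be told apart. The hepatocyte markers Alb, Apoa1, Ttr, Cps1, Serpina1 and Tf had a mean level of 12.30 to 12.32 on normoosmotic arrays and of 12.21 to 12.38 on hypoosmotic ones, and 0 of the 6 were called. These levels lie close to the highest value deposited, 13.26, and saturation of the signal there was not tested.

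Abcb4 encodes Mdr3 (Mdr2 in rodents), the floppase that moves phosphatidylcholine to the outer leaflet of the canalicular membrane, from where it enters bile. Abcb4 (probe set 10853347) read 9.28, 9.26, 9.35 and 9.20 in the normoosmotic group and 8.97, 8.86, 9.01 and 9.19 in the hypoosmotic group. The groups were apart by 0.01 log2 units, the last digit of the deposited values. Its log2 change, −0.27 ± 0.11 (SE; 95% interval −0.50 to −0.03), did not pass over all genes (limma, unadjusted p = 0.0308, adjusted p = 0.277). The highest hypoosmotic value was that of replicate 4, and without it the change was −0.33 (adjusted p = 0.159).

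Abcb11, the bile salt export pump and the main canalicular exit of conjugated bile acids, read 10.52, 10.07, 9.85 and 10.04 on normoosmotic arrays. On hypoosmotic arrays it read 10.09, 10.21, 9.92 and 10.15, within the normoosmotic range. Abcb11 thus had a log2 change of −0.03 (95% interval −0.34 to 0.28; limma, adjusted p = 0.959), so a fall to below 0.792 of the normoosmotic level or a rise above 1.22-fold lies outside the interval. Normoosmotic replicate 1 was the highest array for Abcb11, and without it the change was 0.11.

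Abcg2, the breast cancer resistance protein, exports sulfated conjugates and many drugs. Its 4 normoosmotic values were 5.32, 4.66, 4.44 and 4.70, and its hypoosmotic ones 4.34, 5.41, 4.65 and 4.04. The hypoosmotic range of 1.37 log2 units was the widest of any of the 9 genes in either group and enclosed all normoosmotic values. For Abcg2 the log2 change was −0.17 (95% interval −0.72 to 0.38; limma, adjusted p = 0.826).

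The sterol pair Abcg5 and Abcg8 lay higher on average in the hypoosmotic group without passing the test. Their products work as 1 heterodimer that secretes cholesterol and plant sterols into bile. Abcg5 (probe set 10888196) read 7.61, 6.25, 6.91 and 6.28 on normoosmotic arrays and 6.96, 7.05, 7.39 and 6.92 on hypoosmotic ones. Abcg8 (probe set 10882645) read 5.79, 4.94, 5.46 and 4.90, against 5.78, 5.73, 5.83 and 5.41. For both genes normoosmotic replicates 2 and 4 were the 2 lowest arrays of all 8, while replicates 1 and 3 lay at or near the hypoosmotic values.

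The log2 change was 0.32 for Abcg5 (95% interval −0.22 to 0.85; limma, adjusted p = 0.628). For Abcg8 it was 0.42 (interval 0.01 to 0.82; unadjusted p = 0.044, adjusted p = 0.325). The spread was unequal: Abcg5 had an SD of 0.64 over normoosmotic and 0.21 over hypoosmotic arrays, and Abcg8 one of 0.43 and 0.19. The change of Abcg5 ranged from 0.15 to 0.60 as single arrays were left out, and that of Abcg8 from 0.29 to 0.59.

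The normoosmotic arrays low in Abcg5 and Abcg8 were also those low in Dbp and high in Bmal1, a pair of circadian clock genes. Dbp, a transcription factor gene driven by the clock activator, read 8.89, 6.22, 9.04 and 6.31 on normoosmotic arrays 1 to 4, and Bmal1, which encodes a part of that activator, read 4.85, 7.18, 4.75 and 7.32. On hypoosmotic arrays Dbp read 5.96, 6.43, 7.98 and 8.08, and Bmal1 7.15, 6.90, 6.42 and 6.92. Hypoosmotic arrays 1 and 2, with Dbp at 5.96 and 6.43, had Abcg8 at 5.78 and 5.73. Normoosmotic arrays 2 and 4, with Dbp at 6.22 and 6.31, had it at 4.94 and 4.90. Hypoosmotic arrays 3 and 4, with Dbp at 7.98 and 8.08, had Abcg8 at 5.83 and 5.41. Normoosmotic arrays 1 and 3, with Dbp at 8.89 and 9.04, had it at 5.79 and 5.46. The arrays were set side by side after their values were seen, and the difference at like Dbp was not tested.

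A clock score, the mean of Bmal1 and Npas2 minus the mean of Dbp and Per3, was entered as a covariate in the fit over all genes. The log2 change was then 0.59 for Abcg5 (limma, unadjusted p = 0.00681, adjusted p = 0.188) and 0.59 for Abcg8 (unadjusted p = 0.00286, adjusted p = 0.127), so neither passed over all genes. In the same fit Abcc2 had a change of −0.64 (adjusted p = 0.0304). The fit takes the same slope on the clock score for both groups, and whether they share it was not tested. Among hypoosmotic arrays Abcg8 was lowest, at 5.41, in replicate 4, where Dbp was highest, at 8.08. The labels give no time of day, and the part of the clock in these levels was not tested beyond that fit.

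Over the 36 pairs of measured transporter genes, Abcg5 and Abcg8 had the smallest p for Pearson's r over arrays. After group means were removed, Pearson's r over the 8 arrays was 0.938 (two-sided exact permutation p = 0.00694 over all pairings of arrays within groups) and Spearman's rho 0.929 (exact permutation p = 0.0278). Without the 2 arrays farthest from the median of Abcg5, normoosmotic replicates 1 and 2, r was 0.852. Since the normoosmotic values fall into a high and a low pair of arrays and a group has 4 arrays, r within each cluster could not be tested. Adjusted over the 36 pairs the exact permutation p was 0.25 for r and 0.5 for rho, and 0 pairs passed. The smallest exact permutation p the pairings allow is 0.00174, which adjusts to 0.0625 for a single pair, so no pair could pass alone. By the p of rho, Abcc2 and Abcb4 came first (rho = 0.833, exact permutation p = 0.0156, adjusted 0.5; r = 0.49, exact permutation p = 0.139, adjusted 0.527), with r = 0.545 without normoosmotic replicate 1 and hypoosmotic replicate 4. The next pair by the p of r was Abcg8 and Abcc3, with r = 0.88 (exact permutation p = 0.0156, adjusted 0.281) and rho = 0.762 (exact permutation p = 0.0903, adjusted 0.713), and r was 0.856 without normoosmotic replicates 1 and 4.

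**Figure D2:**
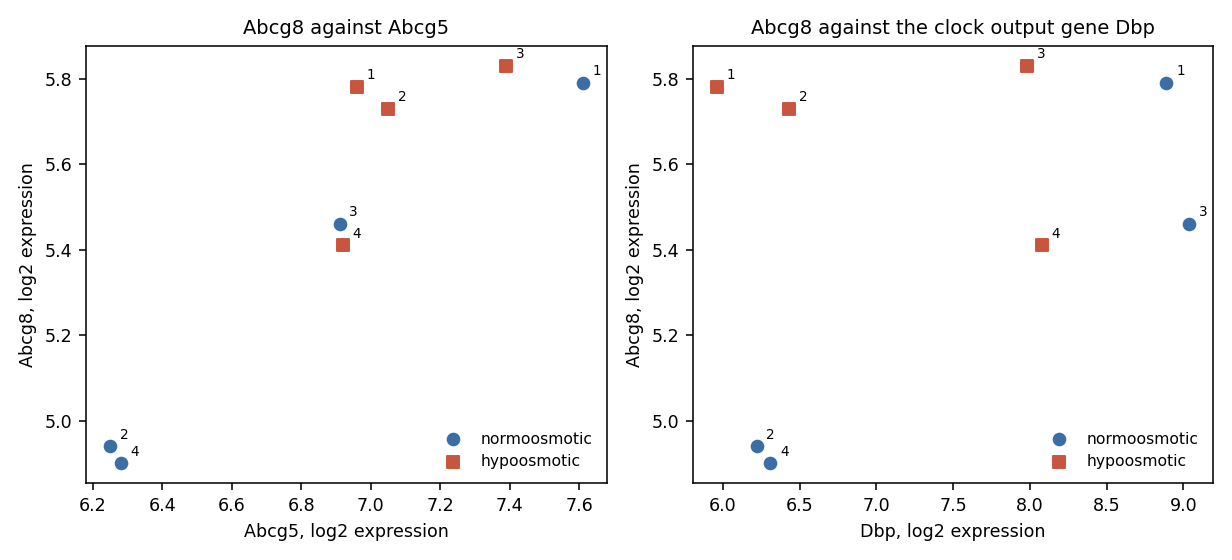
Left, log2 expression of Abcg8 (vertical axis) against Abcg5 (horizontal axis) on each array; right, Abcg8 against the clock output gene Dbp. Circles are normoosmotic and squares hypoosmotic arrays, with replicate numbers. Normoosmotic arrays 2 and 4 lie at the lower left of both plots, at 4.94 and 4.90 for Abcg8, and hypoosmotic arrays 1 and 2 reach 5.78 and 5.73 at similar Dbp values. At higher Dbp values, hypoosmotic arrays 3 and 4 have Abcg8 at 5.83 and 5.41, and normoosmotic arrays 1 and 3 at 5.79 and 5.46.

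On the blood-facing membrane, none of the measured transporters passed the test. Abcc3, or Mrp3, sends glucuronide conjugates and bile salts back to blood. It read 6.42, 5.94, 6.30 and 5.76 on normoosmotic and 6.33, 6.38, 6.27 and 5.67 on hypoosmotic arrays. Hypoosmotic replicate 4 was the lowest of all 8 arrays, and the other 3 lay within the normoosmotic range. Abcc3 had a log2 change of 0.06 (95% interval −0.33 to 0.45; limma, adjusted p = 0.927), and one of 0.22 without hypoosmotic replicate 4 (adjusted p = 0.535).

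Slc10a1, or Ntcp, is the sodium-dependent carrier that takes up most conjugated bile salts from blood. Its values were 11.45, 10.94, 11.05 and 11.20 in the normoosmotic group and 11.02, 11.35, 11.05 and 11.32 in the hypoosmotic group, which overlapped throughout. Slc10a1 had a log2 change of 0.03 (95% interval −0.27 to 0.32; limma, adjusted p = 0.963).

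Slco1b2, or Oatp1b2, takes up bilirubin, unconjugated bile acids and drugs without sodium. It read 10.99, 10.78, 10.92 and 11.06 on normoosmotic arrays and 10.59, 10.73, 10.84 and 11.01 on hypoosmotic ones. The lowest 2 values were hypoosmotic, but the groups overlapped. Its log2 change was −0.15 (95% interval −0.41 to 0.12; limma, adjusted p = 0.654).

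**Figure D3:**
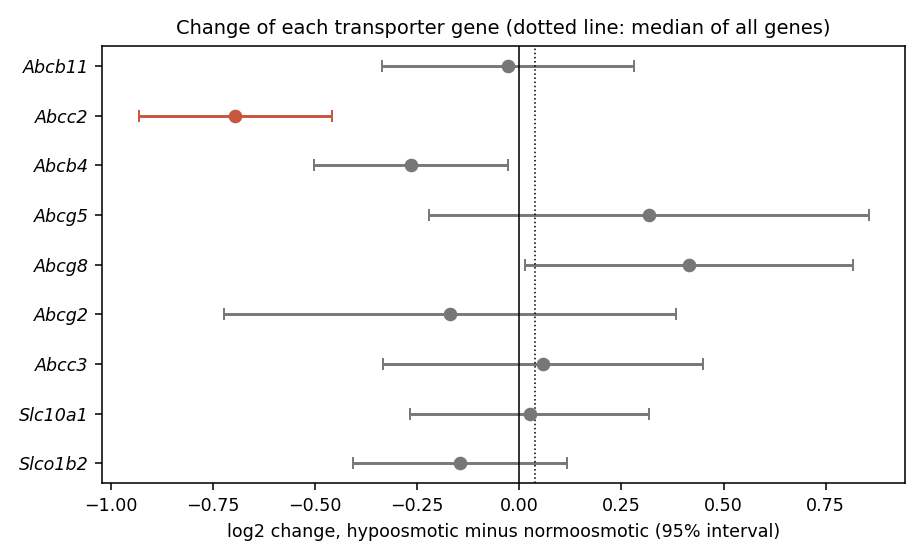
Log2 change, hypoosmotic minus normoosmotic (horizontal axis), of the 9 transporter genes with 95% intervals from limma. The dotted line is the median of all genes, 0.04. The interval of Abcc2, in red, runs from −0.93 to −0.46, and those of the 8 genes in grey, which were not called, include 0 in 6 cases, Abcb4 and Abcg8 being the exceptions.

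To ask whether transporters of linked function changed unequally, the difference between 2 genes was taken on each array and compared between groups with a two-sided exact permutation test. With 4 arrays against 4 the smallest p it allows is 0.0286, which adjusts to 0.114 for a single pair of the 4 tested, so no pair could pass alone. Abcc2 minus Abcc3, the canalicular against the basolateral Mrp gene, was 4.77 ± 0.21 in normoosmotic and 4.02 ± 0.39 in hypoosmotic samples (SD, n = 4 each). The difference of −0.75 had a 95% interval of −1.29 to −0.22, and the exact permutation p was 0.0571 (0.229 adjusted over the 4 pairs tested). The interval excludes 0, and the groups overlapped through hypoosmotic replicate 4, in which Abcc3 was lowest. After quantile normalization this difference was −0.83, and without hypoosmotic replicate 4 it was −0.94, each with an exact permutation p of 0.0286, adjusted 0.114. Leaving out replicate 4 removes the array through which the groups overlapped, so the p without it is no separate evidence. Other alternatives for this pair are not listed here.

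The intervals of the other 3 pairs included 0. Abcb11 minus Slc10a1, export against uptake of bile salts, changed by −0.05 (95% interval −0.29 to 0.19; exact permutation p = 0.771, adjusted 0.771). Abcb11 minus Abcb4, bile salt against phospholipid export, changed by 0.24 (−0.21 to 0.68; exact permutation p = 0.257, adjusted 0.514). For Abcg5 minus Abcg8 the change was −0.10 (−0.45 to 0.25; exact permutation p = 0.6, adjusted 0.771).

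**Figure D4:**
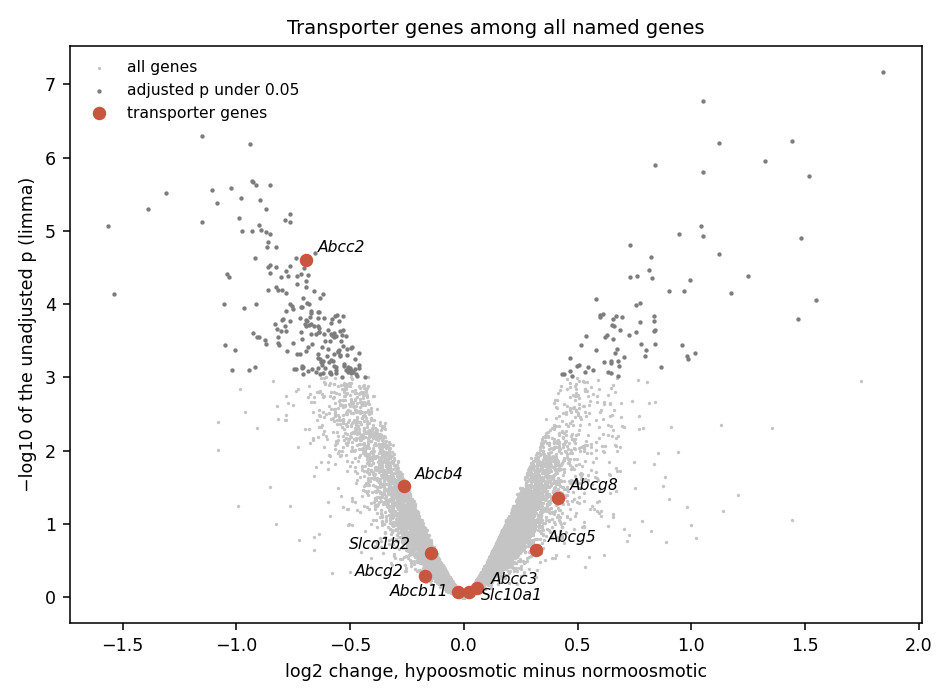
Log2 change (horizontal axis) against −log10 of the unadjusted limma p (vertical axis) for all 14506 genes, in light grey, with the 287 called genes in dark grey and the 9 transporter genes in red. Abcc2 is the 1 red point among the called genes, on the side of lower expression, and Abcb11, Slc10a1 and Abcc3 lie at the base of the plot.

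Among all 43 measured genes of the Abca to Abcg families Abcc2 was the 1 called, and 0 of 14 Slco genes and 0 of 7 Slc10a genes were called (limma; at an unadjusted p under 0.05 there were 9 Abc genes, 4 higher and 5 lower, 0 Slco genes and 1 Slc10a gene, where 14.6% of all genes were). The dimmest 25% of all genes, ranked on mean signal, included 9 of the 14 Slco genes, 6 of the 43 Abc genes and 0 of the 7 Slc10a genes. Related genes of these families are close in sequence, and cross-hybridization between them was not tested. The genes whose log2 values ran most like those of Abcc2 over the 8 arrays were Clk1, a kinase of splicing factors (Pearson's r = 0.984), Rbm25, a splicing regulator (0.977), and Ranbp2, a nuclear pore protein gene (0.976). These are the top 3 of all genes by r, the values share the group difference, and 42 genes had r above 0.95. Clk1 fell by 1.02 ± 0.13 and Rbm25 by 0.89 ± 0.13 (SE; limma, adjusted p = 0.00248 and 0.00437), and Ranbp2 had a change of −0.43 (adjusted p = 0.0629).

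Of 19 other hepatic transporters of bile acids, lipids and organic ions that were measured, 1 rose and 0 fell, with a median change of 0.08. Over all genes 0.558% were called higher and 1.42% lower. Slc16a1, the lactate and pyruvate carrier Mct1, rose from 8.04 ± 0.10 to 8.62 ± 0.21 (SD, n = 4 each), or by 0.58 ± 0.12 (SE; limma, adjusted p = 0.0312). It stayed called under 10 of 17 alternatives (adjusted p at most 0.115 in the rest) and was lost without normoosmotic replicate 1, 3 or 4, without hypoosmotic replicate 1, 2 or 4 and with the clock score. The lowest change in the list was that of Abcb1b, a multidrug resistance gene, at −0.51 (adjusted p = 0.475). Its normoosmotic values ran from 8.39 to 9.94 and overlapped the hypoosmotic range of 8.19 to 9.31. Slc10a2, also the lowest of the cholangiocyte markers, had a change of −0.48 (limma, unadjusted p = 0.0188, adjusted p = 0.216). At an unadjusted p under 0.05 it was the 1 gene of the list that was lower, with 3 higher, where 14.6% of all genes passed in either direction.

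Of the 15 genes of bile acid synthesis and conjugation, 1 fell and 0 rose, and the median change was −0.07. Over all genes 1.42% were called lower and 0.558% higher. At an unadjusted p under 0.05 (limma) 1 of the 15 was lower and 0 higher, where 14.6% of all genes passed in either direction. Cyp7b1, an enzyme of the alternative pathway, fell from 5.07 ± 0.33 to 4.29 ± 0.14 (SD, n = 4 each; log2 change −0.78 ± 0.16, SE; limma, adjusted p = 0.0227). It stayed called under 10 of 17 alternatives (adjusted p at most 0.0783 in the rest). The call was lost without normoosmotic replicate 1, 3 or 4, without hypoosmotic replicate 1, 2 or 3 and with the clock score. Cyp7a1, the rate-limiting enzyme of the classical pathway, was chosen after its values were seen. It ran from 7.20 to 9.35 on normoosmotic and from 6.88 to 7.75 on hypoosmotic arrays, with a log2 change of −0.77 (adjusted p = 0.368). The highest change was that of Cyp39a1, at 0.09.

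Among 16 measured nuclear receptors and other regulators of the transporters 1 rose and 0 fell, with a median change of 0.19. Over all genes 0.558% were called higher and 1.42% lower. At an unadjusted p under 0.05 (limma) 3 of the 16 were higher and 1 lower, where 14.6% of all genes passed in either direction. The hepatocyte transcription factor gene Foxa2 rose from 5.09 ± 0.16 to 5.81 ± 0.28 (SD, n = 4 each; log2 change 0.73 ± 0.15, SE; limma, adjusted p = 0.0237). Foxa2 stayed called under 11 of 17 alternatives (adjusted p at most 0.0831 in the rest) and lost the call without normoosmotic replicate 1, 2 or 3, without hypoosmotic replicate 2 or 3 and with the clock score. The lowest change was that of Nr0b2, or Shp, the repressor induced by Fxr, at −0.60 (adjusted p = 0.19). The genes of the receptors named for the everted repeat, added after their values were seen, were not called but had positive changes. Nr1i2 (Pxr) changed by 0.51 (limma, adjusted p = 0.15), Nr1h4 (Fxr) by 0.205 (0.701) and Nr1i3 (Car) by 0.29 (0.499).

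Of 20 measured genes of canalicular anchoring and vesicle traffic, 0 were called by limma, and 3 had an unadjusted p under 0.05, all higher, a share close to the 14.6% of all genes; the median change was −0.01. The highest change was that of Nherf1, a scaffold that binds the tails of apical transporters, from 8.09 ± 0.15 to 8.62 ± 0.23 (SD, n = 4 each). The change of 0.53 missed the threshold (adjusted p = 0.0629) and passed it after quantile normalization (0.031) and with the trended and robust prior (0.0437). The lowest was that of the tight junction gene Tjp1, at −0.23 (adjusted p = 0.415).

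**Figure D5:**
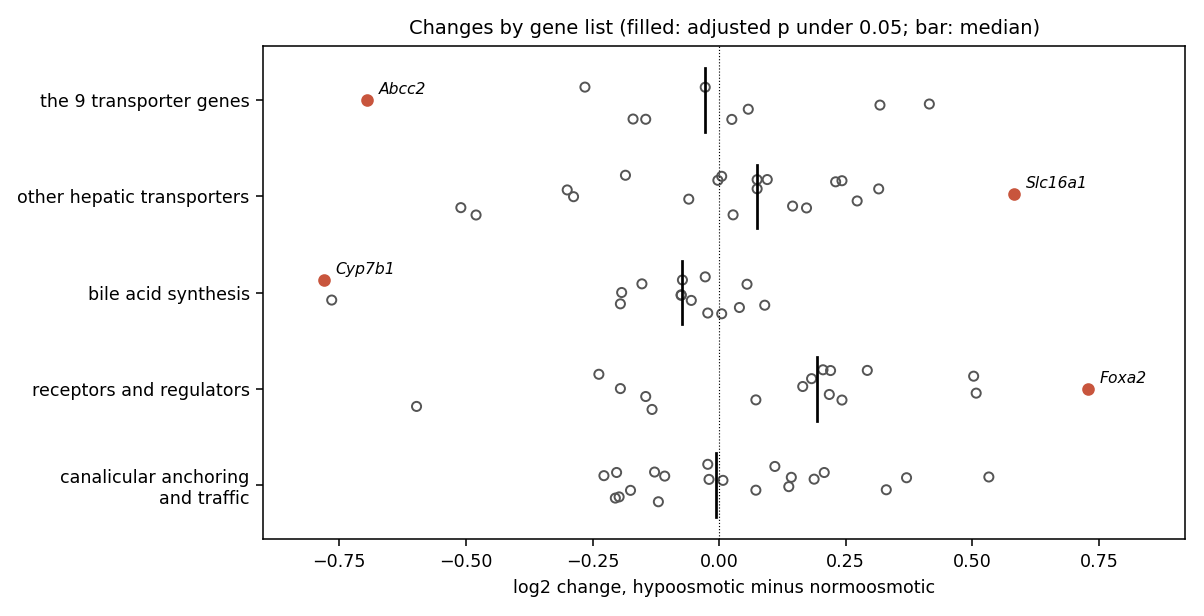
Log2 change, hypoosmotic minus normoosmotic (horizontal axis), of every measured gene in 5 lists (rows): the 9 transporter genes and 4 lists of related genes. Filled red points were called by limma at an adjusted p under 0.05, open points were not, and black bars are list medians. Abcc2, Slc16a1, Cyp7b1 and Foxa2 are the 4 filled points, 1 in each of the upper 4 rows.

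Markers of the cell types that whole liver holds were measured in the same arrays, and 0 of 52 were called (limma; 7 had an unadjusted p under 0.05, 2 higher and 5 lower, beside 14.6% of all genes). The mean level of 6 cholangiocyte markers, the cells that line bile ducts, was 4.73 to 5.34 on normoosmotic and 4.76 to 5.01 on hypoosmotic arrays. The highest of the 6 was Slc10a2, with group means of 8.49 and 8.01, which is also in the list of other hepatic transporters. Kupffer cell markers (8 genes) lay at 6.40 to 6.86 and 6.44 to 7.08, sinusoidal endothelial markers (4 genes) at 7.67 to 8.14 and 7.89 to 8.18, and stellate cell markers (7 genes) at 6.01 to 6.81 and 6.22 to 6.56. Leukocyte markers (5 genes) lay at 3.30 to 3.39 and 3.12 to 3.58. The ranges of the 2 groups overlapped for each of these lists.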

How the data were processed

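Total RNA, extracted with Trizol and labelled with biotin, was measured on 1-colour Affymetrix arrays, per the labels' protocols. The submitters' processing notes name Transcriptome Analysis Console version 4.0; how probes were summarised, corrected for background and normalized is not given in the sources used. The authors deposited log2 values for 27596 probe sets, used as deposited; the scale was read from their range, 0.88 to 13.26. Of these probe sets 15310 had 1 gene symbol in the platform annotation, 323 had several and 11963 had none there. Current symbols came, by gene ID, from RefSeq (GRCr8), with 15279 matches, and for 527 genes the probe set with the highest mean was taken. Each measured transporter gene had 1 probe set.

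The 2 groups were fitted in limma (version 3.58.1, under R 4.3.3; lmFit and eBayes, two-sided), with Benjamini-Hochberg adjustment over 14506 genes and no filter. The fit was tested on simulated data. Same-numbered samples were not taken as pairs, because the labels state no pairing. The correlations of their deviations from group means over all genes were low but all positive, at 0.0456, 0.0276, 0.0835 and 0.173. Normoosmotic replicates 3 and 4 matched the hypoosmotic array of their own number best, while replicates 1 and 2 matched 4 and 3. These values do not settle whether the numbers mark pairs. The transporter genes and all lists were chosen with earlier results of these data known. Genes named are the transporters, the extremes and up to 3 called genes per direction of each list, called family members, the 3 genes most like each called transporter, and 4 clock genes; exceptions are stated. The 4 pair intervals use the pooled SD. Alternatives were a filter on dim genes, 2 other scalings, another prior, array weights, the replicate block, the mean over probe sets, all probe sets, the clock score, a looser threshold and leaving out each array. The planned pair of Slco1b2 and Slco1a1 was not run.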

Additional observations from a re-analysis of the deposited data

Results flagged for a closer look

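In 92 groups of 4 arrays checked over 42 named genes and 4 pairs, 5 held an array far from the other 3, where chance gives about 1 in 20. Abcc3 read 5.67 in hypoosmotic replicate 4, against 6.27 to 6.38 on the other hypoosmotic arrays. Abcb11 minus Slc10a1 was −0.93 in hypoosmotic replicate 1, against −1.17 to −1.13. The endothelial marker Lyve1 read 9.08 in normoosmotic replicate 4, against 8.41 to 8.52, and the plasma protein gene Tf 12.67 in the same array, against 12.56 to 12.57. The leukocyte marker Nkg7 read 3.57 in hypoosmotic replicate 3, against 3.03 to 3.12.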

How the results depend on the processing

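The count of transporter genes called was 1, Abcc2, in every alternative run, including an adjusted p under 0.1. The count of all genes called, 287 as reported, was 92 with the clock score and 601 at an adjusted p under 0.1. It ran from 81 (hypoosmotic replicate 2 left out) to 365 over the fits without 1 array, and was also over 1.5 times lower when normoosmotic replicate 1 (117) or 3 (108) or hypoosmotic replicate 1 (155) or 3 (156) was left out. With the replicate number as a block, 256 genes were called, 216 of them among the 287, and Abcc2 stayed called. The paired sign-flip test of the gene pairs cannot pass with 4 pairs.

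Signs turned mostly for values near 0. Without single arrays Abcb11 ranged from −0.117 to 0.106, Slc10a1 from −0.0483 to 0.122, Abcc3 from −0.0575 to 0.222 and Abcg2 from −0.437 to 0.02. Abcb11 was 0.000866 under array weights and Slc10a1 −0.005 after subtraction of array medians. Abcb11 minus Slc10a1 ranged from −0.107 to 0.00417 and Abcg5 minus Abcg8 from −0.158 to 0.0125. Among markers and clock genes, Dcn ranged from −0.38 to 0.0467, Fcgr2b from −0.0283 to 0.185 and Slc4a1 from −0.11 to 0.0792. Slc4a1 was 0.0271 under array weights and Tf −0.00438 after quantile normalization. Dbp, at −0.50 as reported, was 0.376 with the clock score, of which it is itself a part, so its turn there says nothing on stability. The correlation alternatives, chosen after seeing the data, say nothing on stability, since a single pair cannot go below an adjusted exact permutation p of 0.0625 on 8 arrays or 0.25 on 7.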

Other observations

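Hepatocytes differ along the path of blood through the lobule, and markers of both ends were measured. Of 7 periportal markers 0 were called by limma, and the changes ran from −0.78 for Pck1, a key enzyme of gluconeogenesis (adjusted p = 0.0963), to 0.40 for Sds, a serine-degrading enzyme (0.688). Of 6 pericentral markers 0 were called, and the changes ran from −0.48 for Axin2, a target of Wnt signalling (adjusted p = 0.0977), to 0.37 for the ornithine enzyme gene Oat (0.5). At an unadjusted p under 0.05 (limma) 1 periportal marker was higher and 1 lower, and 1 pericentral marker was lower, beside 14.6% of all genes. In each of these the groups did not overlap, as in 8.27% of all genes. Of 3 erythroid markers 0 were called. At an unadjusted p under 0.05 (limma) 2 of the 3 were lower and 0 higher, and the amount of residual blood was not tested. The haemoglobin gene Hbb, which has close copies, ranged from 6.35 to 8.31 on normoosmotic and from 6.19 to 7.44 on hypoosmotic arrays, with a change of −0.85 (adjusted p = 0.279).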
